A study of Homo sapiens with 12 samples.

Results

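The cell cycle and DNA replication genes described here are 56 genes, of 55765 in the count tables, taken by name from a fixed list as a readout of how far SH-SY5Y cells leave the cell cycle while they differentiate. No cut on measured values was applied to choose them, but the list was drawn up with earlier results of these data known. SH-SY5Y is a human neuroblastoma line, a subclone of the bone marrow-derived line SK-N-SH, and its cells slow their division and grow neurites under all-trans retinoic acid (ATRA). RNA was sequenced in 12 libraries, 3 for each of 4 groups. In the co-treatment experiment, control cells received 10 μM ATRA for 7 days and treated cells received ATRA together with hydrogen peroxide (H2O2). In the pre-treatment experiment, treated cells had H2O2 for the 72 h that preceded 7 days of ATRA, and a separate set of controls had ATRA only. The H2O2 dose is given as 10 mM in the sample records and as 10 μM in the study's methods. All 12 libraries came from ATRA-treated cells, so no undifferentiated level is available as a reference, and nothing states that replicates were separate cultures beyond their number, so p-values measure the spread between these samples.

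A cell commits to division in G1, when cyclin D with CDK4 or CDK6 and cyclin E with CDK2 phosphorylate the retinoblastoma protein RB1 and its relatives, which releases E2F factors. E2F factors switch on the genes for origin licensing, the replication fork and deoxynucleotide synthesis. Later in the cycle, the MYBL2 and FOXM1 factors drive the genes for mitosis, and CDK inhibitors such as CDKN1B act as brakes when neuroblasts differentiate. The 56 genes were therefore arranged by role: 9 G1 cyclins and kinases, 4 CDK inhibitors, 7 genes of the RB, E2F and cell cycle transcription group, 14 replication genes, 3 genes of nucleotide supply, 9 G2/M cyclins and kinases, and 10 genes of chromosomes, spindle and mitotic exit.

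Promoter words differed in frequency between the role groups, with overlap. RefSeq windows on GRCh38.p14, from 250 bases before to 50 bases after the start, were at hand for 44 of the 56 genes. Some genes had more than 1 window, and a gene was counted when any of its windows held the word. The 4 E2F-type words searched, on either strand, were the word TTCCCGC, the word TTGGCGC, the word TTCGCGC and the word TTGCCGC. At least 1 of them was found for 12 of 12 replication genes and 3 of 3 nucleotide supply genes, against 15.3% of all 27305 genes with a window. It was found for 0 of 7 genes of chromosomes, spindle and mitotic exit and 4 of 8 G2/M cyclins and kinases. The cell cycle homology region word (CHR, TTTGAA or TTCGAA, either strand) was found for 6 of those 7 genes and 5 of 8 G2/M cyclins and kinases. This compares with 1 of 12 replication genes and 19.5% of all genes with a window. CCAAT, the NF-Y box, was found for 8 of 8 G2/M genes, 5 of 7 of chromosomes, spindle and mitotic exit and 9 of 12 replication genes. It was found for 39.7% of all genes with a window, and it did not tell these groups apart. Such matches describe the letters only. The 200 bases before the start are printed for 3 mitotic genes and 2 replication genes whose levels are given in the pre-treatment results, with these words in capitals. MKI67 lies at chr10:128126424-128126623, minus strand, PLK1 at chr16:23678689-23678888, plus strand, CCNB2 at chr15:59104946-59105145, plus strand, MCM6 at chr2:135876444-135876643, minus strand and RFC4 at chr3:186806483-186806682, minus strand.
MKI67: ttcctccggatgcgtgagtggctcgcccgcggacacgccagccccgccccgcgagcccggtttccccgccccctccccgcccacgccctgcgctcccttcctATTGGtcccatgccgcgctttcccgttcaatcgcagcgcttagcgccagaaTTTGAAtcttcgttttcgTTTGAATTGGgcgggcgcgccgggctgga
PLK1: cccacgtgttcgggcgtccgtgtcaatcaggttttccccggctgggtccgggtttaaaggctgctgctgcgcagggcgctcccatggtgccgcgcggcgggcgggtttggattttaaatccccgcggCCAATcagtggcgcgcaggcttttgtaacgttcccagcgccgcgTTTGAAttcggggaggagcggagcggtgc
CCNB2: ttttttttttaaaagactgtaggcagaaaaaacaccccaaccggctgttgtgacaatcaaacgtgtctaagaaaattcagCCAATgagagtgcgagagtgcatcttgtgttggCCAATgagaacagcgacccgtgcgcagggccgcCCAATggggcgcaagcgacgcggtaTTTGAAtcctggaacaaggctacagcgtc
MCM6: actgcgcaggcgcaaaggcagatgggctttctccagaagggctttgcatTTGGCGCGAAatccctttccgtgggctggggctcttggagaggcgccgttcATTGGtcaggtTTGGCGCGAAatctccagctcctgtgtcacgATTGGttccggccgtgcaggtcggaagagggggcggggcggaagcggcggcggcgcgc
RFC4: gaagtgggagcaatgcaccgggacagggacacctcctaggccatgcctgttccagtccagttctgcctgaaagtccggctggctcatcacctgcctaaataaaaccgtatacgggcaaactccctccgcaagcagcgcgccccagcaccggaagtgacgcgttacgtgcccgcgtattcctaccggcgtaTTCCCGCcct
In MKI67, PLK1 and CCNB2 a TTTGAA word spans bases -29 to -24 before the start, and in MKI67 it runs into an ATTGG, the reverse of CCAAT. MCM6 carries TTGGCGC overlapped by GCGCGAA, the reverse of TTCGCGC, at 2 places, and RFC4 carries 1 TTCCCGC at -10 to -4.

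Reads counted on genes ranged from 27576276 to 98287391 per library, and the 56 genes took 0.374 to 0.7004% of them. CPM below means counts per 1e6 reads, scaled by TMM factors over the 12 libraries. Libraries were made from rRNA-depleted total RNA. Small structured RNA loci took 1.58 and 2.87% of gene reads in pre-treatment control replicates 1 and 2, 17.6% in control replicate 3, 13.2 to 15.0% in the pre-treated libraries and 5.03 to 13.0% in the co-treatment experiment. Reads outside genes were 0.800 and 0.830 per gene read in control replicates 1 and 2 and 0.200 in control replicate 3. They were 0.343 to 0.462 in the pre-treated libraries and 0.263 to 0.429 in the co-treatment experiment. In both features control replicates 1 and 2 lay outside the range of all other libraries. Fits without control replicate 3 keep only these controls. As the controls differed, pre-treatment counts of called genes are given with and without control replicate 3, and the fit behind each log2FC is named. Adrenergic neuroblastoma markers summed to 2757 to 4047 CPM and mesenchymal ones to 94.9 to 269 CPM, with the adrenergic marker TH at 1 to 16 counts and the mesenchymal marker PRRX1 at 0 to 6 counts per library. The part of these features in the results was not tested, and in bulk RNA fewer dividing cells and less RNA per cell cannot be told apart.

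Genes of all role groups were expressed after 7 days of ATRA. Per kilobase of exon, the scale used here to compare levels between genes, CCND1, a cyclin D gene, had the highest mean level at 195 CPM per kb over the 12 libraries. PCNA, the sliding clamp of the replication fork, followed at 108, and the helicase subunit genes MCM3 and MCM7 at 67.8 and 65.2 CPM per kb. The topoisomerase gene TOP2A, which is made in S, G2 and M, stood at 55.3 CPM per kb. The proliferation marker MKI67 (hg19 chromosome 10, 129894923 to 129924687) stood at 15.9 and the mitotic kinase gene CDK1 at 19.3 CPM per kb. CCND2, another cyclin D gene, was the exception. It had 4 counts in all, with 0 in 9 libraries, and was the 1 gene of the 56 not tested.

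**Figure D1:**
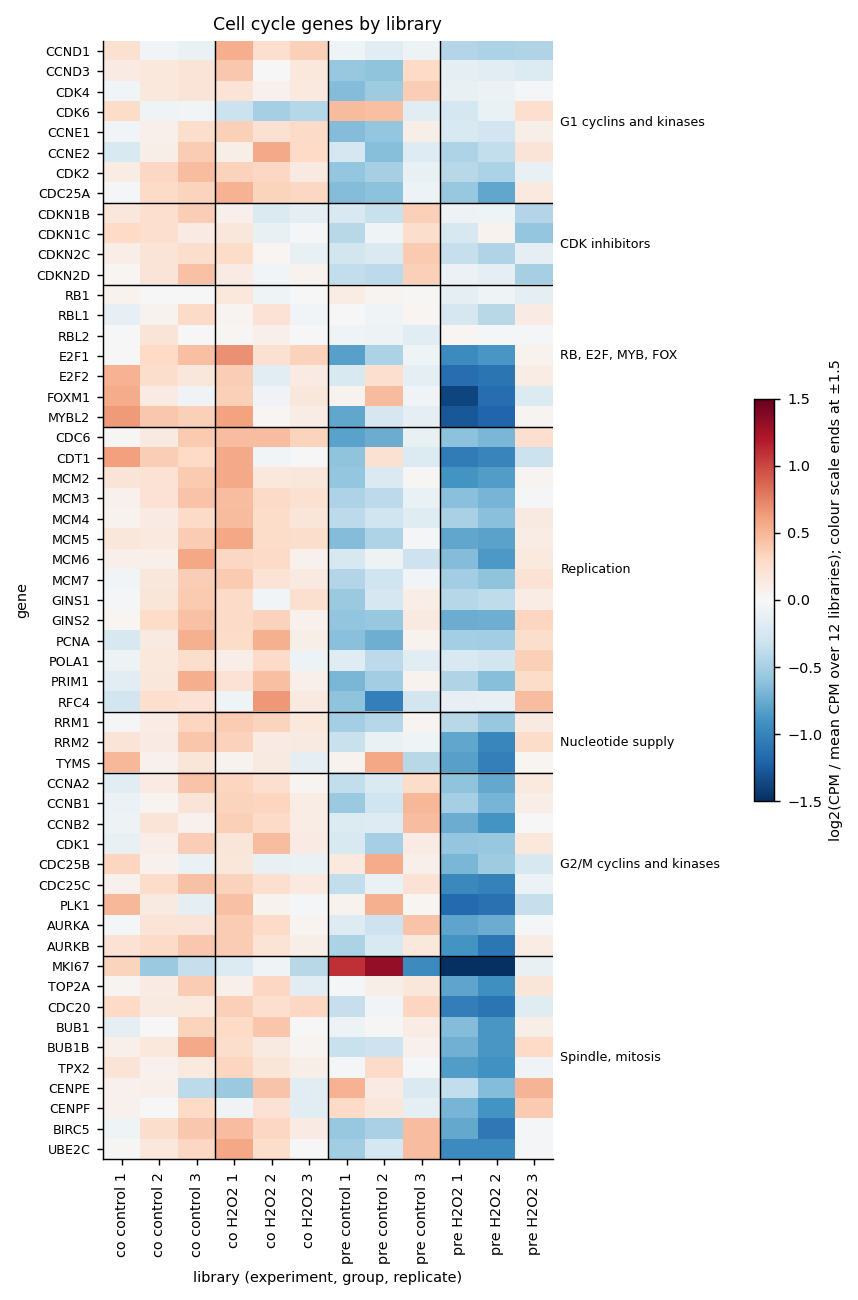
Each row is 1 of the 55 tested genes, ordered by role, and each column 1 of the 12 libraries. Colour gives log2 of CPM over the gene's mean CPM in 12 libraries, with the scale ending at ±1.5. Pre-treated replicates 1 and 2 are blue from E2F1 down to UBE2C except for RFC4, which is near white, pre-treated replicate 3 is mostly pale red, and MKI67 is darkest red in pre-treatment control replicates 1 and 2.

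The libraries of the co-treatment experiment lay close to each other for most of these genes, and those of the pre-treatment experiment did not. For the replication group, the median log2 level relative to each gene's mean lay between 0.02 and 0.39 in the co-treatment controls and between 0.14 and 0.35 with H2O2. In the pre-treatment experiment it was -0.59, -0.39 and -0.07 in the controls and -0.57, -0.67 and 0.18 after H2O2. For chromosomes, spindle and mitotic exit it was -0.06, 0.05 and 0.09 in the pre-treatment controls and -0.78, -0.91 and 0.03 after H2O2. The first pair of pre-treated libraries was thus the lowest of the 12 for the mitotic genes, while the replication genes of these libraries lay near those of pre-treatment control replicate 1. The experiments were run with separate controls, and levels between them were not tested.

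When H2O2 was present during differentiation, none of the 55 tested cell cycle genes changed at an FDR below 0.05 in edgeR's quasi-likelihood test, where 0.598% of all 22089 genes did. At an unadjusted p below 0.05 there were 3 genes, or 5.45%, against 8.15% of all genes tested. Fold changes were small. Log2FC ran from -0.47 to 0.35 with a median of 0.03, against -9.50e-04 for all genes, and standard errors ran from 0.12 to 0.22, so changes of about this size could not be detected. The exact test, DESeq2 and limma-voom also called 0 of the 55 genes, each with 3 at an unadjusted p below 0.05.

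Those 3 genes belonged to the G1 control point, and they were also the 3 whose treated and control libraries did not overlap, which was true of 14% of all genes, 6.58% with higher and 7.37% with lower treated libraries. CDK6, a cyclin D-dependent kinase gene, stood at 516, 406 and 414 CPM in the controls and 342, 301 and 318 CPM with H2O2. All treated values were under all control values (log2FC -0.47, SE 0.13, FDR 0.228). CCND1, the cyclin partner of CDK4 and CDK6, stood at 1092, 904 and 871 CPM in the controls and 1355, 1106 and 1189 CPM with H2O2. Here all treated values lay above the controls, the highest control by a narrow margin (log2FC 0.35, SE 0.14, FDR 0.523). CDKN1B, which encodes the CDK inhibitor p27, had 173, 183 and 199 CPM in controls and 163, 133 and 139.9 CPM in treated libraries (log2FC -0.35, SE 0.13, FDR 0.427). The log2FC of the other 3 CDK inhibitors lay between -0.21, for CDKN1C, and -0.11, with overlapping libraries.

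The S-phase and mitotic genes showed no separation by H2O2 in this experiment. MKI67 stood at 257, 139 and 160.4 CPM in controls and 177, 196 and 152 CPM in treated libraries, where the groups overlapped (log2FC -0.08, SE 0.20). TOP2A stood at 364, 383 and 458 and 371, 435 and 313 CPM (log2FC -0.10, SE 0.15). MCM2, a subunit of the replicative helicase, stood at 185, 189 and 213 and 239.6, 182 and 183 CPM (log2FC 0.04, SE 0.14). Each of these differences was smaller than its SE. The largest values in the other groups were -0.20 for E2F2, -0.23 for the licensing factor CDT1, -0.23 for thymidylate synthase TYMS, 0.21 for cyclin B1 CCNB1 and 0.17 for the checkpoint kinase BUB1, all with overlapping libraries. E2F1 had a log2FC of 0.17, PCNA of 0.15 and CDK1 of 0.13.

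Of 129 other cell cycle genes tested, from a list of 131 such genes, 1 changed, where 0.598% of all 22089 genes did. CDKN1A, which encodes the CDK inhibitor p21, stood at 122, 132 and 116 CPM in controls and 275, 223 and 288 CPM with H2O2. The groups did not overlap, and the gene was up-regulated by a log2FC of 1.09 (SE 0.13, FDR 0.00349). This call was lost in 1 fit over both experiments (FDR 0.294) and without treated replicate 3 (FDR 0.0559), at log2FC 1.08 and 1.01. Its relatives among the 56 genes had negative log2FC in this experiment, as given above.

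**Figure D2:**
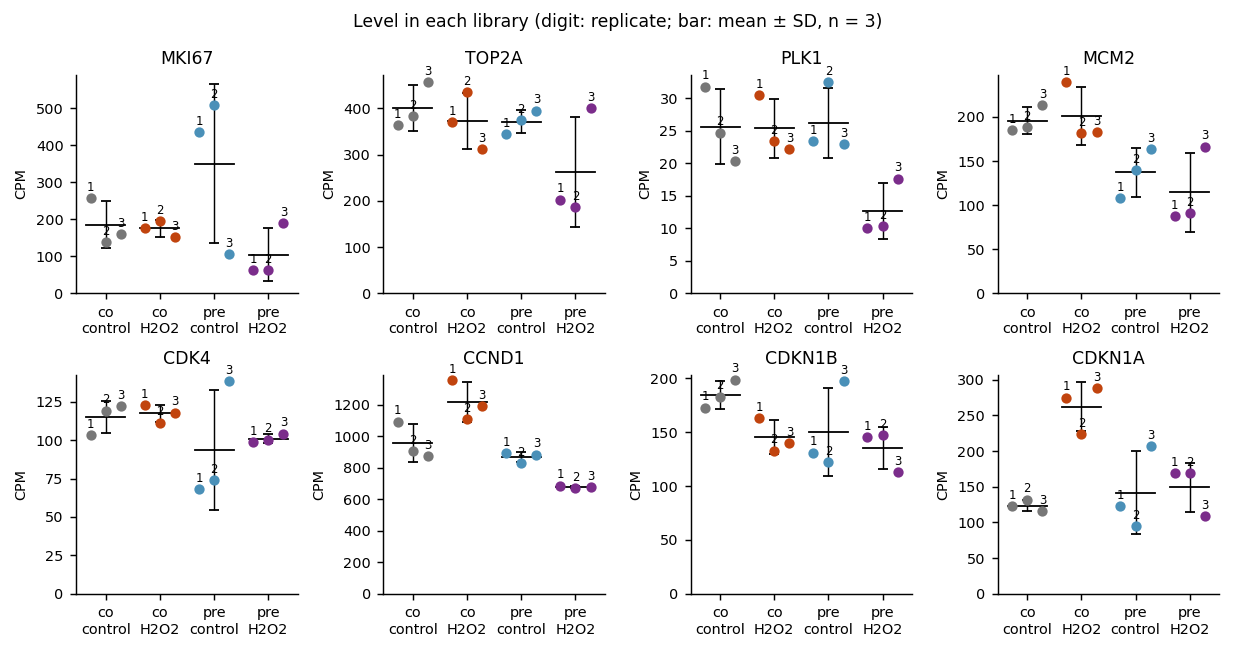
Level in CPM of 7 of the 56 genes and of CDKN1A in each library, by group, with the replicate number over each point and the mean ± SD (n = 3) as bars. Each axis starts at 0. CDKN1A is higher in all 3 co-treated libraries, CCND1 is lower in all 3 pre-treated ones, and MKI67 in pre-treatment control replicate 3 sits at 105 CPM against 434 and 509 CPM in the other controls.

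H2O2 before differentiation was followed by lower mitotic gene levels in treated replicates 1 and 2, and how many genes were called depended on single libraries. With all 6 libraries, 0 of the 55 genes were called, and only 6 of 24743 genes (0.0242%) were called at all, each of them higher. At an unadjusted p below 0.05 there were 7 of the 55 genes, or 12.7%, against 11.2% of all genes tested. Of these, RFC4 was higher and MKI67, PLK1, CDC25B, FOXM1, CDC20 and TPX2 were lower. The median log2FC of the 55 genes was -0.17, against -0.01 for all genes. DESeq2 called 2 genes, PLK1 and CDC25B, both lower.

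Without control replicate 3, 8 of the 55 genes (14.5%) were called, 4 higher and 4 lower. This is a smaller share than among all 26350 genes tested, of which 26.1% were called, 13.2% higher and 12.8% lower. The genes called higher were CCND3, CDK4, CCNE1 and RFC4, of G1 and of replication. The genes called lower were MKI67, PLK1, FOXM1 and CDC25B, of mitosis and its transcription. Without treated replicate 3 as well, the library above the other treated ones in most of these genes, 27 genes were called, 3 higher and 24 lower, where 33.1% of all 25881 genes were called, 15.9% higher and 17.2% lower. Leaving out control replicate 2 in place of treated replicate 3 left 1 called gene, CDK4, in a fit with 1 control library, whose spread had to be taken as that of the treated libraries.

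**Figure D3:**
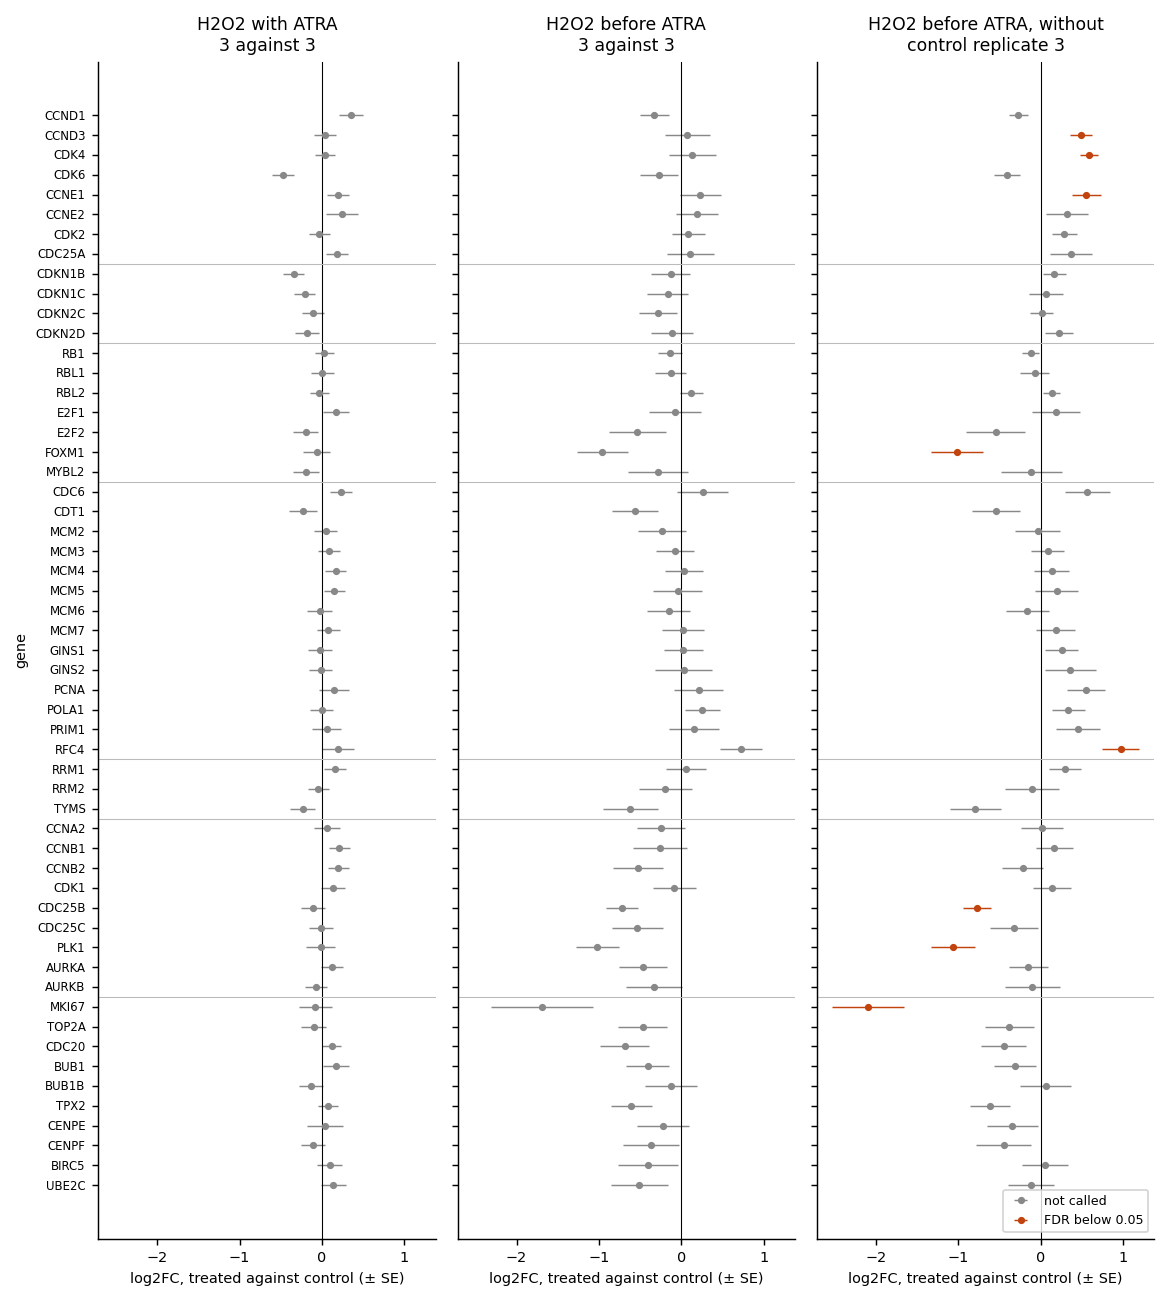
Log2FC (treated against control) with its SE for the 55 tested genes in role order, for H2O2 with ATRA, for H2O2 before ATRA with all 6 libraries, and for H2O2 before ATRA without control replicate 3. Orange points mark an FDR below 0.05. The co-treatment values stay between -0.47 and 0.35, MKI67 reaches -1.69 and -2.10 before ATRA, and the 8 called genes appear only in the third panel.

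Among G1 cyclins and kinases, CCND1 was the gene with the closest replicates. It stood at 892, 831 and 883 CPM in the pre-treatment controls and 686, 671 and 678 CPM after H2O2. Exons of LTO1 on the other strand overlap 10.4% of its exon bases. All 3 treated libraries lay below all 3 controls, control replicate 3 included (log2FC -0.33, SE 0.17, FDR 0.518, with 6 libraries, and log2FC -0.27, FDR 0.111, without control replicate 3). CDK4 (hg19 chromosome 12, 58141510 to 58149796) stood at 68.1, 73.8 and 138 CPM in the controls and 98.6, 100.5 and 104 CPM after H2O2. Treated values fell between control replicates 1 and 2 below them and control replicate 3 above them, so the gene was up-regulated without that library (log2FC 0.58, SE 0.11, FDR 0.00712) and not with it (log2FC 0.13, FDR 0.873). Exons of TSPAN31 on the other strand overlap 44.2% of the exon bases of CDK4, and the strand setting of the counting is not stated, so part of its count may belong to TSPAN31.

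CCND3 and CCNE1 had the same layout as CDK4. CCND3 stood at 17.5, 17.2 and 32.1 CPM in controls and 23.5, 23.4 and 22.6 CPM after H2O2 (log2FC 0.48, SE 0.13, FDR 0.0297, without control replicate 3). CCNE1, a cyclin E gene, stood at 11.6, 12.1 and 19.3 CPM in controls and 15.5, 14.9 and 19.3 CPM after H2O2 (log2FC 0.55, SE 0.17, FDR 0.0446). For both genes control replicate 3 was about as high as or higher than the treated libraries, and with it the log2FC were 0.07 and 0.23. CDK6 went the other way, with 591, 584 and 382 CPM in controls and 356, 398 and 506 CPM after H2O2. Control replicates 1 and 2 lay above all treated libraries and control replicate 3 between them (log2FC -0.27, FDR 0.678, with 6 libraries, and log2FC -0.41, FDR 0.0832, without control replicate 3). The other 3 tested genes of the group, CCNE2, CDK2 and CDC25A, were not called in any of these fits.

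None of the 4 CDK inhibitors was called in a pre-treatment comparison. CDKN1B stood at 131, 122 and 197 CPM in controls and 146, 147 and 113 CPM after H2O2, so the groups overlapped (log2FC -0.13, SE 0.24, with 6 libraries, and log2FC 0.17, SE 0.14, without control replicate 3). The sign of the log2FC turned with that library for CDKN1B, CDKN1C, CDKN2C and CDKN2D alike. CDKN1C, the imprinted inhibitor p57, had 18.7, 23.9 and 30.1 CPM in controls and 21.1, 25.9 and 16.7 CPM after H2O2. CDKN2D, an inhibitor of CDK4 and CDK6, had 14.0, 13.8 and 23.1 and 17.0, 16.5 and 12.8 CPM. In all 4 genes control replicate 3 was the highest library of the pre-treatment experiment. CDKN1A, outside the list, had 123, 94.7 and 207 CPM in controls and 169, 169 and 109 CPM after H2O2 (log2FC 0.09, FDR 0.926, with 6 libraries). Without control replicate 3 its log2FC was 0.52 (FDR 0.0952), and without treated replicate 3 as well it was called higher (log2FC 0.67, FDR 0.0101).

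In the RB, E2F and transcription group, RB1 differed little and the mitotic transcription factor FOXM1 was lower after H2O2. RB1 stood at 125, 118 and 116 CPM in controls and 106, 110.0 and 104 CPM after H2O2, with treated libraries below all controls by a small margin (log2FC -0.14, FDR 0.728, with 6 libraries, and log2FC -0.12, FDR 0.417, without control replicate 3). FOXM1 stood at 45.1, 60.3 and 42.1 CPM in controls and 16.8, 19.6 and 37.9 CPM after H2O2. All treated libraries lay below all controls, and the gene was down-regulated without control replicate 3 (log2FC -1.02, SE 0.31, FDR 0.0442) but not called with it (log2FC -0.96, FDR 0.33). ITFG2 exons on the other strand overlap 15.9% of its exon bases. E2F1 stood at 33.5, 42.5 and 56.4 CPM in controls and 30.5, 32.1 and 61.0 CPM after H2O2. Treated replicates 1 and 2 were below and treated replicate 3 above every control (log2FC -0.08, SE 0.32, with 6 libraries). The sign turned without control replicate 3 (log2FC 0.19, SE 0.29). E2F2 and MYBL2 also had treated replicates 1 and 2 below every control and treated replicate 3 among or above the controls.

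Replication genes gave 1 call, RFC4, a subunit of the clamp loader that places PCNA on DNA. RFC4 (hg19 chromosome 3, 186507669 to 186524847) stood at 20.6, 15.5 and 26.0 CPM in controls and 28.8, 29.1 and 43.3 CPM after H2O2. All treated libraries lay above all controls, and it was up-regulated 1.96-fold without control replicate 3 (log2FC 0.97, SE 0.22, FDR 0.0157). With all 6 libraries it had log2FC 0.73, FDR 0.357. PCNA stood at 97.5, 91.1 and 156 CPM in controls and 106, 105 and 181 CPM after H2O2, with control replicate 3 among the treated values (log2FC 0.21, FDR 0.806, with 6 libraries, and log2FC 0.54, FDR 0.113, without control replicate 3). MCM2 stood at 108, 139 and 164 CPM in controls and 87.4, 90.6 and 166 CPM after H2O2. Exons of another gene on the other strand overlap 23.6% of its exon bases. Treated replicates 1 and 2 lay under all controls and treated replicate 3 over them (log2FC -0.23, SE 0.29, with 6 libraries, and log2FC -0.04, SE 0.27, without control replicate 3). MCM7, the member of the group with the highest mean CPM though not per kilobase of exon, had 239, 264 and 314 CPM in controls and 225, 212 and 376 CPM after H2O2, the same order. MCM6, another helicase subunit gene, had 77.9, 87.2 and 74.3 CPM in controls and 58.4, 50.5 and 102 CPM after H2O2, again with treated replicates 1 and 2 lowest and treated replicate 3 highest (log2FC -0.15, SE 0.26, with 6 libraries, and log2FC -0.16, SE 0.26, without control replicate 3). The licensing factor CDT1 had the lowest log2FC of the group, -0.56 with 6 libraries and -0.54 without control replicate 3, and was not called. Of 44 other replication genes, 9 were called higher and 0 lower without control replicate 3, among them RPA2 (log2FC 0.81), POLD2 (log2FC 0.79) and ORC2 (log2FC 0.50), where 13.2% of all genes were called higher. With all 6 libraries, 0 of the 44 were called.

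Nucleotide supply followed the same split between treated libraries. TYMS, which makes thymidylate, stood at 18.7, 26.9 and 13.6 CPM in controls and 10.2, 8.86 and 18.5 CPM after H2O2. Without control replicate 3 the groups did not overlap (log2FC -0.79, SE 0.31, FDR 0.0895), and with all 6 libraries they did (log2FC -0.62, FDR 0.529). ENOSF1 and TYMSOS on the other strand overlap 47.9% of its exon bases. RRM1, the large subunit of ribonucleotide reductase, had 73.1, 77.2 and 107 CPM in controls and 78.5, 70.2 and 115 CPM after H2O2, and RRM2, the small one, had 60.9, 71.9 and 73.2 and 44.9, 39.0 and 92.8 CPM. Neither was called with or without control replicate 3.

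In the G2/M group, PLK1 and CDC25B were lower in all pre-treated libraries. PLK1 (hg19 chromosome 16, 23688977 to 23701688), a mitotic kinase, stood at 23.3, 32.4 and 22.9 CPM in controls and 10.0, 10.3 and 17.6 CPM after H2O2. Exons of other genes overlap 12.8% of its exon bases. It was down-regulated 2.09-fold without control replicate 3 (log2FC -1.07, SE 0.26, FDR 0.0207), and with it the size was similar but the call was not made (log2FC -1.02, SE 0.27, FDR 0.32). CDC25B, a phosphatase that activates CDK1, stood at 55.8, 73.7 and 53.0 CPM in controls and 31.1, 34.8 and 42.5 CPM after H2O2 (log2FC -0.77, SE 0.17, FDR 0.0137, without control replicate 3, and log2FC -0.72, FDR 0.32, with it). CDK1, the kinase itself, stood at 64.3, 53.4 and 82.0 CPM in controls and 50.2, 50.8 and 83.8 CPM after H2O2. These groups overlapped, with treated replicates 1 and 2 lowest and treated replicate 3 highest (log2FC -0.09, SE 0.26, with 6 libraries). The sign turned without control replicate 3 (log2FC 0.14, SE 0.23). CCNB2 showed 30.3, 30.6 and 48.3 CPM in controls and 20.9, 18.8 and 35.0 CPM after H2O2, with 2 treated libraries under all controls. All 9 genes of the group had a negative log2FC with 6 libraries, with a median of -0.46, and 6 of 9 without control replicate 3, with a median of -0.15.

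MKI67 had the largest log2FC of all 55 genes, and the widest control spread. It stood at 434, 509 and 105 CPM in controls, 349 ± 215 CPM (SD, n = 3), and at 63.4, 62.7 and 189 CPM after H2O2, 105 ± 72.5 CPM (SD, n = 3). Control replicates 1 and 2 lay above all treated libraries, and control replicate 3 lay below treated replicate 3. Without control replicate 3 the gene was down-regulated 4.28-fold (log2FC -2.10, SE 0.43, FDR 0.0108), and with all 6 libraries it was not called (log2FC -1.69, SE 0.62, FDR 0.366). TOP2A did not share this pattern in the controls. It stood at 345, 374 and 395 CPM in controls and 203, 186 and 401 CPM after H2O2, with treated replicates 1 and 2 below every control and treated replicate 3 above (log2FC -0.47, FDR 0.586, with 6 libraries, and log2FC -0.38, FDR 0.365, without control replicate 3). CENPF, a kinetochore protein gene, stood at 522, 480.1 and 384 CPM in controls and 263, 228 and 557 CPM after H2O2, in the same order. TPX2, a spindle assembly factor, had 79.9, 98.3 and 80.0 CPM in controls and 45.3, 43.2 and 77.8 CPM after H2O2. Its treated libraries all lay below all controls. All 10 genes had a negative log2FC with 6 libraries, with a median of -0.44, and 8 of 10 without control replicate 3, with a median of -0.36. Of 61 other mitosis genes, 2 were called higher and 5 lower without control replicate 3, among them CIT (log2FC -1.57), ESPL1 (log2FC -1.08) and GTSE1 (log2FC -0.96). That is a smaller share than the 26.1% of all genes called in this fit, and with all 6 libraries 0 of the 61 were called.

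Counted over all 6 pre-treatment libraries, treated and control libraries did not overlap in 8 of 55 genes, or 14.5%, against 16.4% of all genes, 7.97% with higher and 8.47% with lower treated libraries. RFC4 and RBL2 were higher in every treated library, and CCND1, RB1, FOXM1, PLK1, CDC25B and TPX2 were lower in every treated library. With 3 against 3, an exact permutation test of a single gene cannot go below p = 0.1.

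Pre-treated replicate 3 stood apart from pre-treated replicates 1 and 2 in these genes. It was above both in 48 of 55 genes, against 39.9% of all genes tested, and the median of its ratio to their mean was 1.72-fold, against 1.00-fold over all genes. This held for 14 of 14 replication genes, 3 of 3 of nucleotide supply, 9 of 9 of G2/M and 10 of 10 of chromosomes, spindle and mitotic exit, but for 1 of 4 CDK inhibitors. Each other group also had a library above both others in many of the 55 genes. These were co-treatment control replicate 3 (37 genes), co-treated replicate 1 (39) and pre-treatment control replicate 3 (40). Their median log2 ratios were 0.21, 0.17 and 0.42, against 0.78 for pre-treated replicate 3. MKI67 was 2.98-fold higher in pre-treated replicate 3 than in the other treated libraries, MYBL2 2.39-fold, E2F2 2.29-fold and CENPF 2.26-fold, while CDKN1C was at 0.719 and CDKN1B at 0.774 of their level. CCND1 and RB1 did not move with it, at 1.00 and 0.968 of the level in the others. The same was seen in 119 of 130 other cell cycle genes, with a median of 1.52-fold. The fraction of small structured RNA was 13.2% in this library and 15.0% in each of the others, and the adrenergic marker sum was 3519 CPM against 2861 and 2983 CPM. The part of either in the difference was not tested.

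**Figure D4:**
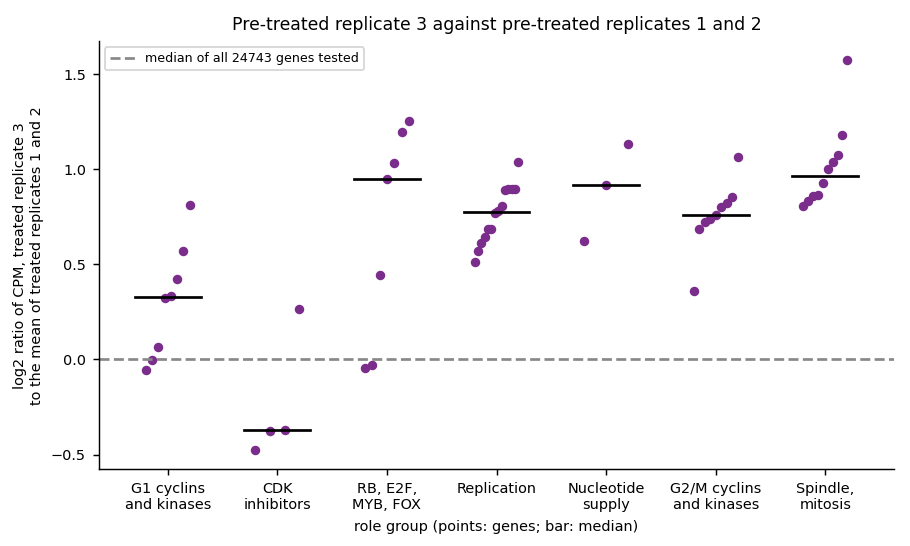
Log2 ratio of CPM (0.5 CPM added) in pre-treated replicate 3 to the mean of pre-treated replicates 1 and 2, 1 point per gene, with the group's median as a bar and the median of all 24743 genes as a dashed line. All points of the replication, nucleotide supply, G2/M and mitosis groups lie above 0, and 3 of 4 CDK inhibitors lie below it.

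With treated replicates 1 and 2 against control replicates 1 and 2, the 24 genes called lower held 9 of 10 genes of chromosomes, spindle and mitotic exit, 6 of 9 G2/M genes, 3 of 7 of the RB, E2F and transcription group, 3 of 14 replication genes, 2 of 3 of nucleotide supply and 1 of 8 G1 genes. The 3 called higher were CDK4, CCND3 and RFC4. Treated libraries lay under control libraries in 37 of 55 genes, or 67.3%, against 38.1% of all 25881 genes. This comparison leaves out the treated library that was above the others in 48 of the 55 genes. Its counts of lower genes, SE and FDR therefore describe only the 4 libraries kept. With all 6 libraries, treated libraries lay under controls in 6 of 55 genes, or 10.9%, against 8.47% of all genes. The 8 lower genes with the smallest FDR in the 4 libraries kept included MKI67 (log2FC -2.87), FOXM1 (log2FC -1.50), CENPF (log2FC -0.99) and TOP2A (log2FC -0.85). The others were PLK1 (log2FC -1.41), TPX2 (log2FC -0.97), E2F2 (log2FC -1.11) and CDC25B (log2FC -0.94). The SE of MKI67 was 0.12 in this fit and 0.62 with all 6 libraries, where the gene was not called. Among other cell cycle genes, 32 of 61 mitosis genes were called lower and 2 higher, and 6 of 44 replication genes were called lower and 10 higher. Of all 25881 genes, 17.2% were called lower and 15.9% higher in this fit. The treated library left out was above the other treated ones in 119 of 130 other cell cycle genes.

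Control replicate 3 was above control replicates 1 and 2 in 40 of 55 genes (39.5% of all genes) and below them in 11 (46% of all genes), with a median of 1.33-fold. Its largest departure was MKI67, 4.46-fold lower than in the other controls. Among the genes lower in control replicate 3, TYMS at 1.66-fold and CDK6 at 1.54-fold came next. BIRC5, an inhibitor of cell death that also serves in the chromosomal passenger complex, was 1.95-fold higher, CDK4 1.95-fold, CCNB1 1.88-fold and the ubiquitin-conjugating enzyme gene UBE2C 1.79-fold higher. Genes with long exons were less raised in this library than genes with short ones. Across the 55 genes, which share the same libraries and are not independent, the ratio and the exon length had a Spearman rho of -0.54, against -0.14 over 16823 genes with a length. The median log2 ratio was 0.13 for the 14 genes over 6000 bases and 0.49 for the 41 shorter ones. MKI67 has 12845 exon bases, CENPF 12471 and UBE2C 1286. Control replicate 3 also had the highest fraction of small structured RNA, and its part in these ratios was not tested.

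**Figure D5:**
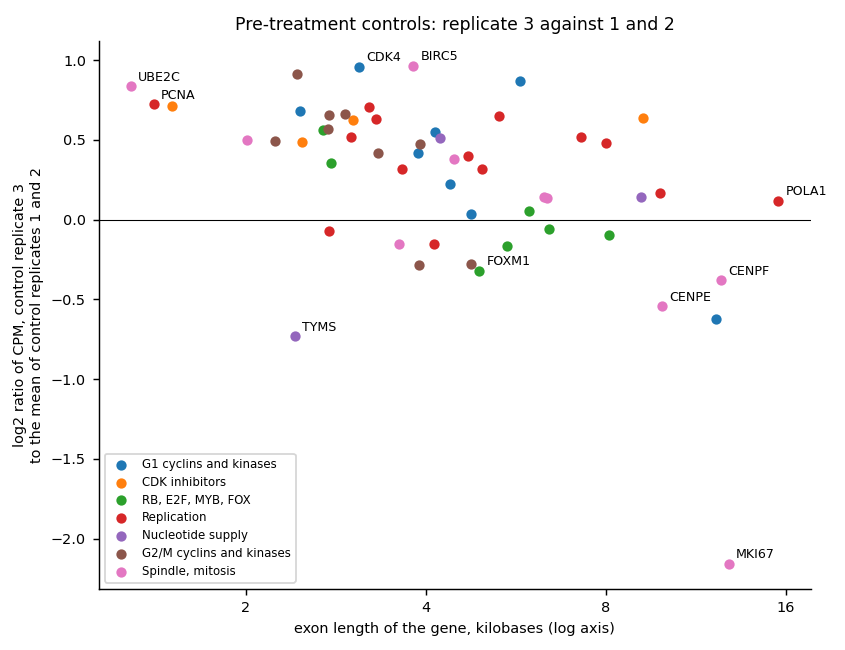
Log2 ratio of CPM (0.5 CPM added) in pre-treatment control replicate 3 to the mean of control replicates 1 and 2, against exon length in kilobases on a log axis, 1 point per gene, coloured by role. UBE2C and PCNA, the shortest labelled genes, lie above 0, and the long genes MKI67, CENPF and CENPE lie below it. Other labelled genes break this order. POLA1, the longest at 15547 bases, lies above 0 (0.12), and the shorter TYMS (-0.73) and FOXM1 (-0.32) lie below it.

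The response of the 55 genes to H2O2 before and during ATRA was compared by the interaction of treatment and experiment, in 1 fit with 1 estimate of the spread. With all 12 libraries, no gene of the 55 differed, where 0.0287% of all 24407 genes did. At an unadjusted p below 0.05 there were 8 of the 55, or 14.5%, against 8.94% of all genes. In all 8 the difference was negative. Without pre-treatment control replicate 3, 2 genes of the 55 differed, or 3.64%, both lower, against 8.02% of all 25668 genes in either direction and 4.7% lower. They were MKI67, with a difference in log2FC of -2.07 (SE 0.51, FDR 0.0284), and CCND1, with -0.68 (SE 0.19, FDR 0.0406). In both genes the log2FC was lower before than during ATRA, and for CCND1 the 2 effects had opposite signs, 0.35 during and -0.27 before. With control replicate 3, the differences were -1.65 and -0.70 (FDR 0.549 and 0.454). PLK1 and CDC25B, at log2FC -1.11, FDR 0.0585, and log2FC -0.71, FDR 0.0675, did not pass. For the other genes no difference between the exposures was shown, at a median SE of 0.30.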

How the data were processed

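Total RNA of the 12 libraries was rRNA-depleted and made into stranded libraries. The authors checked reads with FastQC 0.11.8, trimmed them with Cutadapt 2.10, mapped them to hg19 with HISAT2 2.1.0 and counted them with HTSeq 0.7.2, per the labels and methods. The deposited counts are raw reads per gene symbol. The strand setting and the annotation version are not given in the sources used here. The authors' 2 tables of fold changes, p-values and FDR were not used.

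Counts were analysed in R 4.3.3. The 5 closing entries of each file that name no gene (40.0 to 59.9% of all entries' reads) were left out. A gene was tested when it reached the CPM equal to 5 counts of the smallest library, in a number of libraries at least that of the smaller group. Groups were compared with edgeR 4.0.16 (quasi-likelihood test, TMM factors, Benjamini-Hochberg adjustment over all genes tested), and a gene was called at an FDR below 0.05. Alternatives were edgeR's exact test, DESeq2 1.42.0, limma-voom (limma 3.58.1), RLE size factors, no filter, a replicate block, a log2FC threshold, no small structured RNA loci, 1 fit over both experiments and each library left out. The scripts were tested on simulated counts.

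Genes were named by rule: MKI67, TOP2A, CDK1, CCND1, CDKN1B, CDKN1C, E2F1, PCNA and MCM2, the genes called in each comparison (up to 8 in each direction), and, in each role group, the gene with the highest mean CPM and those with the largest log2FC. Others named beside them, such as MCM6, CCNB2, RRM2 and TPX2, were chosen after their values were seen. The genes, gene lists and comparisons were chosen with earlier results of these data known. Exon lengths, positions and overlaps come from GENCODE lifted to hg19, and promoters from RefSeq.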

Additional observations from a re-analysis of the deposited data

Results flagged for a closer look

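For 2 of the 55 tested genes the response to H2O2 differed between the exposures in the interaction test without pre-treatment control replicate 3, with edgeR's quasi-likelihood test. The log2FC of MKI67 was lower before than during ATRA by a difference of -2.07 (SE 0.51, FDR 0.0284), and that of CCND1 by a difference of -0.68 (SE 0.19, FDR 0.0406). With that control included, neither passed (FDR 0.549 and 0.454), at differences of -1.65 and -0.70. Both calls were also lost when any 1 of these was left out: co-treatment control replicate 2 or 3, co-treated replicate 3, pre-treatment control replicate 1 or 2, or pre-treated replicate 1 or 2. Leaving out pre-treatment control replicate 1 or 2 left 1 control in that experiment. CCND1 was lower in all 3 pre-treated libraries and higher in all 3 co-treated ones than in the controls of the same experiment. MKI67 was lower in all 3 pre-treated libraries than in control replicates 1 and 2, and its co-treatment libraries overlapped.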

How the results depend on the processing

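No alternative called any of the 55 genes in the co-treatment comparison, and the count stayed at 0 to 0 with each library left out. With all 6 pre-treatment libraries the count of 0 became 2 with DESeq2 and ran from 0 to 8 with each library left out, 8 being the count without control replicate 3. Without control replicate 3, the count of 8 became 17 with no filter, 3 with a log2FC threshold of 1 and 32 (6 higher, 26 lower) with a replicate block, and ran from 1 (without control replicate 2, which leaves 1 control) to 27 (without treated replicate 3). With the block, treated replicate 3 has no partner and carries no weight. Deviations of same-numbered libraries correlated by 0.03, -0.04 and -0.11 in the co-treatment and -0.23, 0.05 and -0.27 in the pre-treatment experiment. Differently numbered libraries of the pre-treatment experiment ran from -0.42 to 0.42. With 3 libraries per group, such values cannot decide whether the replicate numbers pair the libraries. In the interaction test, 0 of 55 genes became 1 (MKI67) with no filter over 12 libraries, ranging from 0 to 2 with each left out. Over 11 libraries the count of 2 became 5 with DESeq2, 7 with no filter and 12 with the replicate block, ranging from 0 to 13. The cause of these moves was not tested. Of 699 alternative values of single named genes, 629 stayed called or stayed uncalled, 47 lost the call, 23 gained it and none reversed with a call. The 629 include 27 values without a call that changed sign. CCNE1 lost its call also with limma-voom, RLE size factors and without small structured RNA loci (FDR 0.0505 to 0.0529). Of the promoter shares, E2F-type words in replication genes went from 100 to 75%, and CHR words in mitotic genes from 85.7 to 57.1%, with 200 bases searched. At 27576276 or more gene reads per library, CCND2 was the 1 gene of the 56 with too few counts to test.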

Other observations

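Of the 10 mesenchymal neuroblastoma markers, vimentin (VIM), an intermediate filament gene, was called higher in edgeR's quasi-likelihood test in co-treatment (log2FC 1.16, FDR 0.0272), before ATRA with all 6 libraries (log2FC 2.42, FDR 0.0442) and without control replicate 3 (log2FC 2.66, FDR 7.18e-04). It was the 1 call among 8 tested markers in each of the first 2 fits, with 5 positive and 3 negative log2FC in both, and COL1A1, a collagen gene, had log2FC -1.65 and -0.60 there without a call. In the last fit VIM, CD44, YAP1 and GJA1 were called higher of 9 tested markers and none lower, where 13.2% of all genes were called higher. Levels were low in the pre-treatment libraries, at 0.05 to 0.96 CPM for YAP1, 0.81 to 2.97 for CD44 and 0.44 to 3.47 for GJA1. The sum of the list did not rise with these calls, at 269, 150.5 and 138 CPM in the pre-treatment controls and 199, 180 and 139.5 CPM after H2O2. It was mostly FN1, at 236, 123 and 98.0 CPM in those controls and 138, 126 and 89.6 CPM after H2O2. The sum therefore does not show how the other markers changed. The transcription factor genes E2F7 and E2F8, atypical E2F repressors that were not among the 56 genes, had 8.73, 10.5 and 7.56 CPM and 7.59, 7.14 and 4.60 CPM in the pre-treatment controls and 4.64, 3.86 and 9.14 CPM and 2.99, 3.20 and 8.17 CPM after H2O2. Treated replicates 1 and 2 lay below all controls and treated replicate 3 among or above them, the layout seen in E2F2. E2F4, which acts with the RB family in resting cells, had 66.0, 60.3 and 103 CPM in those controls and 88.1, 87.6 and 93.9 CPM after H2O2. Its treated libraries lay above control replicates 1 and 2 and below control replicate 3. CIT, the citron kinase of cytokinesis, had 49.0, 61.8 and 23.8 CPM in controls and 11.9, 15.5 and 25.8 CPM after H2O2, and control replicate 3 lay below treated replicate 3, as for MKI67.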
